A study of Homo sapiens with 6 samples.

Results

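The Polycomb genes described here are the 10 rows of the count table named EZH1, EZH2, EED, SUZ12, JARID2, PHF19, RING1, RNF2, BMI1 and CBX2, out of 18398 genes in the table. They were chosen by name, with earlier results of these data known, and all 10 were in the table and passed the filter on low counts. The data are RNA sequencing counts from SUM159, a cultured line from a human triple-negative breast tumour whose cells look mesenchymal. The groups are 3 libraries of stable cells overexpressing POGK, called POGK cells, and 3 libraries of cells with the empty pLVX lentiviral vector, called control cells. Both groups therefore carry the lentiviral vector and grew in the same medium, Ham's F12 with serum, insulin and hydrocortisone. The labels do not give the promoter that drives POGK, whether the stable cells are a pool or a clone, or whether replicates were separate cultures. The p-values thus measure only the spread between these libraries, which may be technical. The stated purpose was to find genes that POGK regulates. POGK is a KRAB domain protein that derives from a pogo-like transposon.

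Polycomb group proteins keep genes silent through chromatin, in complexes of a few interchangeable parts. Polycomb repressive complex 2 (PRC2) methylates histone H3 on the lysine known as H3K27. Its catalytic subunit is either EZH2, typical of dividing cells, or EZH1, typical of resting and differentiated cells, and it needs the scaffold SUZ12 and the methyl-lysine reader EED. Accessory subunits define alternative forms: PHF19, MTF2 or PHF1 with EPOP or LCOR form PRC2.1, and JARID2 with AEBP2 forms PRC2.2. Polycomb repressive complex 1 (PRC1) attaches ubiquitin to histone H2A through RING1 or RNF2, each paired with a PCGF protein such as BMI1. In canonical PRC1 a CBX protein such as CBX2 binds the mark that PRC2 makes.

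Promoter sequences are shown because the main PRC2 genes moved together and EZH1 moved against them. The windows run from 250 bases before to 50 bases after a transcription start, in RefSeq annotation of build GRCh38.p14, and are written 5′ to 3′ along the gene. Capitals mark matches to 3 spellings of the E2F site, the motif of many S-phase genes: TTTCCCGC, TTTGGCGC and TTTCGCGC, searched on both strands. SUZ12, EZH2 and PHF19 hold a match; EED rose without one, and EZH1 is the member with the largest fall.
SUZ12, chr17:31936757-31937056, plus strand: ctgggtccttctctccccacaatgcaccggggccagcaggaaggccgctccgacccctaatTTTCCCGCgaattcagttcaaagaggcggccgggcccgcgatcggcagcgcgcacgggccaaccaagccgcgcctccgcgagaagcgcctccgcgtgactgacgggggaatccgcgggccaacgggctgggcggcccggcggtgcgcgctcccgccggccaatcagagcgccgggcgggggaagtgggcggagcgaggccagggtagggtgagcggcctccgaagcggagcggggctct
EZH2, chr7:148884242-148884541, minus strand: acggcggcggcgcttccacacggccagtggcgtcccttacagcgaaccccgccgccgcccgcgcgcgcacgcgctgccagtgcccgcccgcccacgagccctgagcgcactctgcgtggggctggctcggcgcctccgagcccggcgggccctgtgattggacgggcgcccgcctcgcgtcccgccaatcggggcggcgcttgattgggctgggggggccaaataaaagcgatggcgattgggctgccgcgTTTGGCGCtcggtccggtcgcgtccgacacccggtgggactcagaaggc
PHF19, chr9:120877139-120877438, minus strand: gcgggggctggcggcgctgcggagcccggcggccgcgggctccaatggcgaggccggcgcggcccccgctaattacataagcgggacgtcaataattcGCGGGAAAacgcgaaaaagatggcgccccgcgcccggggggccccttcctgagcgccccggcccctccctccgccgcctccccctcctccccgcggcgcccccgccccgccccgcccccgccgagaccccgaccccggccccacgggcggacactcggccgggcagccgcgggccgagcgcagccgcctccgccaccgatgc
EED, chr11:86244503-86244802, plus strand: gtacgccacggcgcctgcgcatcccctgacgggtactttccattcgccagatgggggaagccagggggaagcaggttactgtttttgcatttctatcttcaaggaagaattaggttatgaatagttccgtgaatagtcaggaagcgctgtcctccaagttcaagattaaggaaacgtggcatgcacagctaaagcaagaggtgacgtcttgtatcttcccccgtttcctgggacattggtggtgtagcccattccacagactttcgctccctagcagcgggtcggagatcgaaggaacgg
EZH1, chr17:42744991-42745290, minus strand: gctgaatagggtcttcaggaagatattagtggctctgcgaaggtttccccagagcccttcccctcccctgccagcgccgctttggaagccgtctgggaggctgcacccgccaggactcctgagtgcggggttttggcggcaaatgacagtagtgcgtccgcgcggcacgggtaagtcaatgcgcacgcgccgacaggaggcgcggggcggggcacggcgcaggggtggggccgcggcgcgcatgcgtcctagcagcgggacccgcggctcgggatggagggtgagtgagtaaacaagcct

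Of the 13 windows that RefSeq gives for 9 members, 3 held an E2F match, or 23.1%. Among 15442 windows of tested protein-coding genes outside chromosome 8, 4.02% held one. For proliferation marker genes it was 9 of 18 windows, or 50%. Other PRC2 subunit genes had a match in 1 of 10 windows, variant PRC1 genes in 1 of 37 and canonical PRC1 partner genes in 0 of 11. CBX2 had no window. The match lay at positions -189 to -182 from the start in SUZ12, at -152 to -145 in PHF19 on the opposite strand, and at 2 to 9 in EZH2. The 3 members with a match all rose in POGK cells, where 32.7% of all genes tested were called higher. Promoter windows were examined after that rise was seen, and the share that rose among all genes with a match was not counted. The windows of EZH1, RNF2, RING1, BMI1 and JARID2 held none of these letters, and neither did the second windows of EZH2 and PHF19. The cell cycle motif TTTGAA, known as CHR, was in 1 member window, that of SUZ12, against 10.9% of all windows. Windows of the members held a median of 40 CpG dinucleotides, against 25 in all windows, and a median GC content of 74.3%, against 64.3%. A match is a description of letters and not evidence of binding.

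Libraries held 27645789 to 33689230 counts. Levels are given as CPM, counts scaled to a common library size with TMM factors, which assumes that most genes do not differ. POGK itself averaged 768 ± 22.02 CPM in POGK cells and 69.0 ± 7.58 CPM in control cells (SD, n = 3 each). The mesenchymal markers VIM, CD44, FN1, SPARC, AXL, ZEB1 and CDH2 summed to 6267 to 6349 CPM in POGK cells and 10320 to 13030 CPM in control cells. VIM and FN1 fell the most in CPM, to 3344 and 962 in POGK cells, against 5960 and 3055 in control cells. CD44, SPARC and ZEB1 also fell. AXL and CDH2 rose, to 443 and 166 CPM in POGK cells, against 354 and 145 CPM in control cells. Of 8 hormone receptor and luminal markers, PGR is not analysed here, and ESR1 with 1 to 8 counts and EPCAM with 4 to 10 counts in any library were too low to test. The other 5 were expressed: KRT18, ERBB2 and FOXA1 rose, to 204, 85.6 and 2.705 CPM in POGK cells, against 124.5, 72.9 and 1.501 CPM in control cells. KRT8 and GATA3 fell, to 282 and 4.38 CPM in POGK cells, against 342 and 8.601 CPM in control cells. Of 8 markers of blood, endothelial and liver cells, 2 were tested and the others are not analysed here; PTPRC and PECAM1 summed to 5.395 to 5.86 CPM in POGK cells and 4.79 to 6.70 CPM in control cells, and PTPRC had 50, 72 and 47 counts in the POGK libraries against 7, 22 and 18 in the control libraries. The POGK libraries lay close together, with a chi-square statistic per gene of 1.36 to 2.62 between pairs, against 22.5 to 49.7 between pairs of control libraries. In bulk RNA, fewer cells of a type and less RNA per cell cannot be told apart.

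POGK cells had more RNA of the PRC2 core and less of EZH1 and of the PRC1 ligase gene RNF2. RING1, the other ligase gene, fell less, and its call was lost in several alternative settings. Of the 10 members, 5 rose (EZH2, EED, SUZ12, PHF19 and CBX2), 4 fell (EZH1, RNF2, RING1 and BMI1) and JARID2 did not pass, by edgeR's quasi-likelihood test at an adjusted p below 0.05. Among all 15889 genes tested, 32.7% were called higher and 33.3% lower, 66.0% in all, so a called member is not unusual in this comparison. Scaling by library size alone moved the median of all genes up to 0.19 on the log2 scale, with 6575 genes higher and 3925 lower, in place of 5202 and 5285. The members that fell were then 2, EZH1 and RNF2, as they were without POGK replicate 1, 2 or 3. The CPM values of the groups did not overlap for any of the 10 members, and for 73.7% of all genes they did not. The median log2 fold change was 0.13 over the members and 0.002 over all genes. EZH1 and SUZ12 had the largest changes: 13.5% of all genes changed by more than EZH1 in either direction, and 16.7% by more than SUZ12. For JARID2 that share was 83.3%, and for RING1 76.4%. Control libraries varied more than POGK libraries for 7 of the 10 members by coefficient of variation, which was 23.4% for SUZ12 in control cells and 2.96% in POGK cells.

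**Figure D1:**
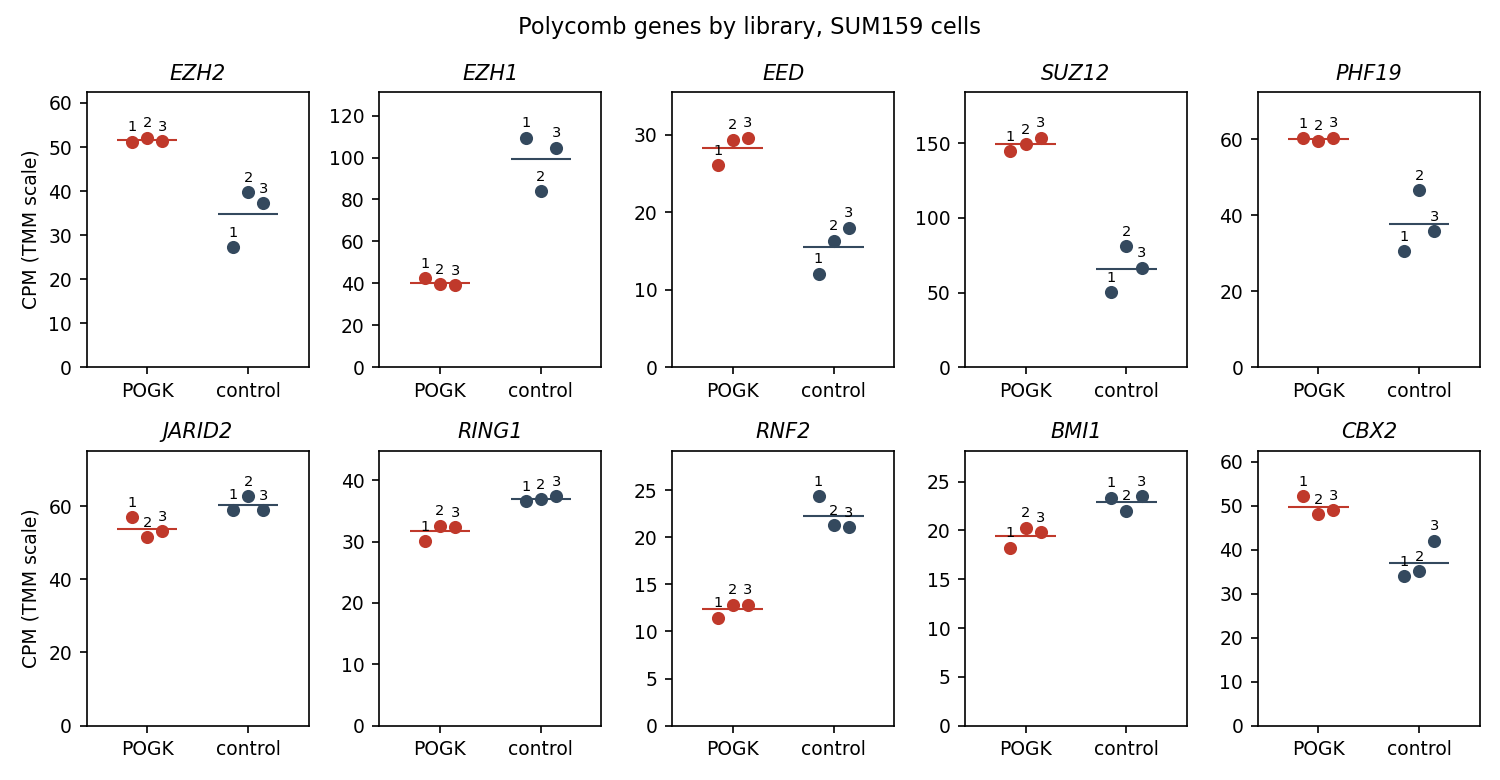
Each panel plots 1 Polycomb gene, with CPM on the TMM scale on the vertical axis, POGK libraries on the left and control libraries on the right; dots are libraries with their replicate number and lines are group means (n = 3). No gene's groups overlap, and control replicate 1 is the lowest control library for EZH2, EED, SUZ12, PHF19, CBX2 and RING1.

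EZH2 (ENSG00000106462; hg38 chromosome 7, 148807257 to 148884321, minus strand) encodes the catalytic subunit that dominates in proliferating cells. It had 51.2, 52.1 and 51.3 CPM in the POGK libraries, against 27.2, 39.7 and 37.3 CPM in the control libraries. All POGK libraries stood above all control libraries, and the control values were uneven, with replicate 1 the lowest. EZH2 rose 1.48-fold, or 0.57 ± 0.13 (SE) on the log2 scale (edgeR, adjusted p = 0.0037).

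EZH1 (ENSG00000108799; hg38 chromosome 17, 42700275 to 42745049, minus strand) encodes the alternative catalytic subunit. It had 42.4, 39.6 and 39.2 CPM in the POGK libraries, against 109.4, 83.9 and 104.8 CPM in the control libraries. Every POGK library held less than 1 in 2 of the mean control level, and control replicate 2 was the lowest control. EZH1 fell 2.46-fold, or -1.30 ± 0.10 (SE) on the log2 scale (edgeR, adjusted p = 1.61e-05), the smallest of the 10 members.

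The paralogs were also compared inside each library, where scaling between libraries has no part. The log2 ratio of EZH2 to EZH1, each per kilobase of annotated exon, was -0.35, -0.23 and -0.24 in the POGK libraries and -2.63, -1.70 and -2.12 in the control libraries. The ratio was thus 3.68-fold higher in POGK cells, a log2 difference of 1.88, at an exact two-sided permutation p of 0.1, the smallest that 3 against 3 libraries allow. As EZH2 and EZH1 each separated the groups, in opposite directions, that p was fixed in advance and adds nothing to their values. EZH2 made up 69.0 ± 1.02% of the summed EZH2 and EZH1 level per kilobase of canonical transcript in POGK cells, against 37.9 ± 7.48% in control cells (SD, n = 3 each). Which paralog was more abundant depends on the length used. The exons of EZH2 span 10774 bases in union, against 2654 bases in its canonical transcript. Per kilobase of that union the EZH2 share was 45.3 ± 1.18% in POGK cells and 18.7 ± 4.79% in control cells. The direction between the groups cannot depend on this choice, since each gene's length is the same in every library.

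SUZ12 (ENSG00000178691; hg38 chromosome 17, 31937007 to 32001038, plus strand), the scaffold of PRC2, was the most abundant member in CPM in POGK cells. It had 144.9, 149.6 and 153.7 CPM in the POGK libraries, against 50.2, 81.1 and 66.8 CPM in the control libraries. The lowest POGK library was well above the highest control library, and control replicate 2 was the highest control. SUZ12 rose 2.26-fold, or 1.18 ± 0.15 (SE) on the log2 scale (edgeR, adjusted p = 0.000152). SUZ12 has a long near-copy, the pseudogene SUZ12P1, which had 16.4, 17.5 and 16.1 CPM in the POGK libraries and 10.3, 11.9 and 10.3 CPM in the control libraries. Reads of shared sequence could be split between the pair, so the SUZ12 level is uncertain to that extent. Processed pseudogenes are also annotated for EZH2, EED, RNF2 and BMI1, and reads shared with them were not examined.

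EED (ENSG00000074266; hg38 chromosome 11, 86201212 to 86278813, plus strand) encodes the subunit that binds the finished mark and stimulates the enzyme. It had 26.1, 29.4 and 29.6 CPM in the POGK libraries, against 12.1, 16.3 and 17.99 CPM in the control libraries. The groups stood apart, and control replicate 1 was again the lowest. EED rose 1.83-fold, or 0.87 ± 0.14 (SE) on the log2 scale (edgeR, adjusted p = 0.000646). Its exons overlap a lncRNA on the opposite strand over 221 bases, or 3.16% of its exon bases, and the strand setting used for counting is not given in the sources used here.

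PHF19 (ENSG00000119403; hg38 chromosome 9, 120855651 to 120894896, minus strand), a Tudor domain subunit of PRC2.1, had 60.3, 59.6 and 60.4 CPM in the POGK libraries, against 30.5, 46.6 and 35.8 CPM in the control libraries. The POGK libraries were nearly equal and all higher than the controls, of which replicate 2 was the highest. PHF19 rose 1.59-fold, or 0.67 ± 0.14 (SE) on the log2 scale (edgeR, adjusted p = 0.0021).

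JARID2 (ENSG00000008083; hg38 chromosome 6, 15246069 to 15522042, plus strand), the PRC2.2 subunit that helps target PRC2 to chromatin, had 56.9, 51.6 and 53.1 CPM in the POGK libraries and 59.0, 62.7 and 58.9 CPM in the control libraries. The groups did not overlap but came close, in POGK replicate 1 and control replicate 3. Its log2 fold change of -0.16 ± 0.07 (SE) did not pass the test (edgeR, adjusted p = 0.0724). With library size alone as scaling it was 0.03. It passed at 0.0472 when genes were kept with at least 1 CPM in 3 libraries, and at 0.0499 without control replicate 1, in a range of 0.0472 to 0.735 over 14 alternatives. Inside the libraries, the log2 ratio of JARID2 to PHF19 per kilobase of exon averaged -0.08 ± 0.07 in POGK cells and 0.78 ± 0.26 in control cells (SD, n = 3 each; exact two-sided permutation p = 0.1, the smallest possible). That p too was fixed in advance, since JARID2 and PHF19 each separated the groups, in opposite directions. The difference was -0.86, so the balance between these genes was lower by a factor of 0.552 in POGK cells. It describes these genes only and not PRC2.2 against PRC2.1. Of the other PRC2.1 genes, MTF2 and EPOP rose, whereas PHF1 and LCOR fell.

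**Figure D2:**
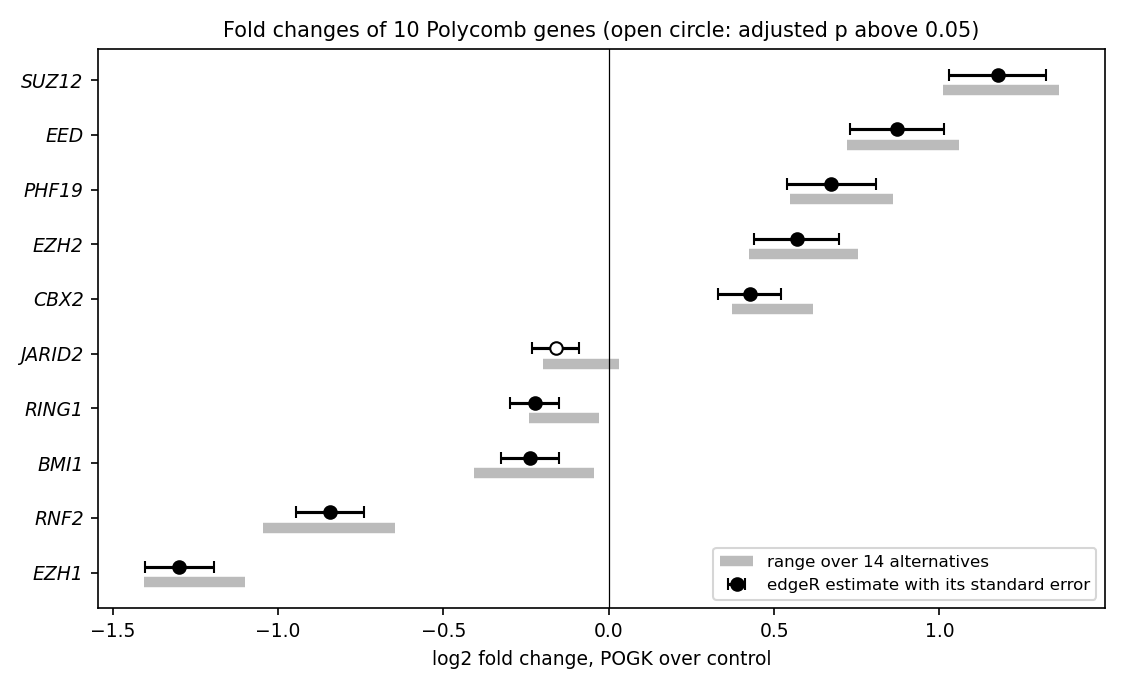
Log2 fold changes of POGK over control cells for the 10 members, ordered by size; circles are edgeR estimates with standard errors, open where the adjusted p is above 0.05, and grey bars span 14 alternative settings. The bars of EZH2, EED, SUZ12, PHF19 and CBX2 lie above 0 and those of EZH1 and RNF2 below it, while that of JARID2 crosses 0 and those of RING1 and BMI1 end close to it.

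Among the PRC1 members, RNF2 changed the most by fold and RING1 and BMI1 the least. RNF2 (ENSG00000121481; hg38 chromosome 1, 185045526 to 185102603, plus strand), also called RING1B, encodes the main ubiquitin ligase of PRC1. It had 11.5, 12.8 and 12.9 CPM in the POGK libraries, against 24.4, 21.3 and 21.1 CPM in the control libraries. All POGK libraries lay below all control libraries with little spread in either group. RNF2 fell 1.79-fold, or -0.84 ± 0.10 (SE) on the log2 scale (edgeR, adjusted p = 0.000131).

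RING1 (ENSG00000204227; hg38 chromosome 6, 33208500 to 33212722, plus strand), the paralogous ligase, had 30.1, 32.6 and 32.3 CPM in the POGK libraries, against 36.6, 36.9 and 37.4 CPM in the control libraries. The groups did not overlap, and the control libraries were nearly equal. RING1 fell 1.17-fold, or -0.22 on the log2 scale (edgeR, adjusted p = 0.0246). That call was lost with the replicate block, at an adjusted p of 0.0571, with library size alone, at -0.03, with GC content and exon length trends removed, at -0.12, and without any 1 of the POGK replicates 1, 2 and 3, at adjusted p-values of 0.134, 0.0729 and 0.0843. The log2 ratio of RNF2 to RING1 per kilobase of exon was -2.50, -2.45 and -2.44 in the POGK libraries and -1.69, -1.90 and -1.93 in the control libraries. The difference of -0.62 was larger than the spread in either group, at an exact two-sided permutation p of 0.1, the smallest possible. RNF2 made up 16.7 ± 0.32% of the summed level of the pair per kilobase of canonical transcript in POGK cells and 23.5 ± 1.66% in control cells (SD, n = 3 each).

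BMI1 (ENSG00000168283; hg38 chromosome 10, 22321099 to 22331484, plus strand), also called PCGF4, activates the ligases and is known for supporting stem-like breast cells. It had 18.2, 20.3 and 19.8 CPM in the POGK libraries, against 23.4, 21.99 and 23.5 CPM in the control libraries. The groups stood apart by less than 2 CPM. BMI1 fell 1.18-fold, or -0.24 on the log2 scale (edgeR, adjusted p = 0.0373). The call was lost with DESeq2 at 0.0595, with the replicate block at 0.077, with library size alone at 0.689, without control replicate 3 at 0.0663, and without POGK replicate 1, 2 or 3 at 0.176, 0.0834 and 0.111. With GC content and exon length trends removed, the log2 fold change was -0.41 at an adjusted p of 0.0034. BMI1 shares 22.8% of its exon bases with the readthrough gene COMMD3-BMI1, not analysed here, and how shared reads were counted is not given in the sources used here. COMMD3, its upstream neighbour, named for that overlap, had 8.75 ± 0.14 CPM in POGK cells and 11.7 ± 0.13 CPM in control cells.

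CBX2 (ENSG00000173894; hg38 chromosome 17, 79778148 to 79787983, plus strand), a chromodomain reader that also compacts chromatin, had 52.1, 48.1 and 49.0 CPM in the POGK libraries, against 33.97, 35.1 and 42.01 CPM in the control libraries. The POGK libraries were all higher, and control replicate 3 came nearest to them. CBX2 rose 1.34-fold, or 0.43 ± 0.10 (SE) on the log2 scale (edgeR, adjusted p = 0.0036).

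Levels of different genes were set side by side per kilobase of canonical transcript. In POGK cells the order was SUZ12 at 33.2, EZH2 at 19.4, RING1 at 18.2, PHF19 at 14.5, EED at 13.6 and CBX2 at 10.8 CPM per kilobase, then JARID2 at 8.97, EZH1 at 8.71, BMI1 at 5.49 and RNF2 at 3.63. JARID2 and EZH1 overlapped between libraries, and the other neighbours in that order did not. In control cells the order was EZH1 at 21.4, RING1 at 21.2, SUZ12 at 14.7, EZH2 at 13.1, JARID2 at 10.03 and PHF19 at 9.07 CPM per kilobase, then CBX2 at 7.997, EED at 7.41, RNF2 at 6.52 and BMI1 at 6.48. There only RING1 and SUZ12 stood apart as neighbours in that order. The order depends on the length used: per kilobase of exon union, RING1 stood above EZH1 in control cells, at 20.4 against 14.2 CPM per kilobase, and EZH1 stood above EZH2 in POGK cells, at 5.78 against 4.78 CPM per kilobase.

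**Figure D3:**
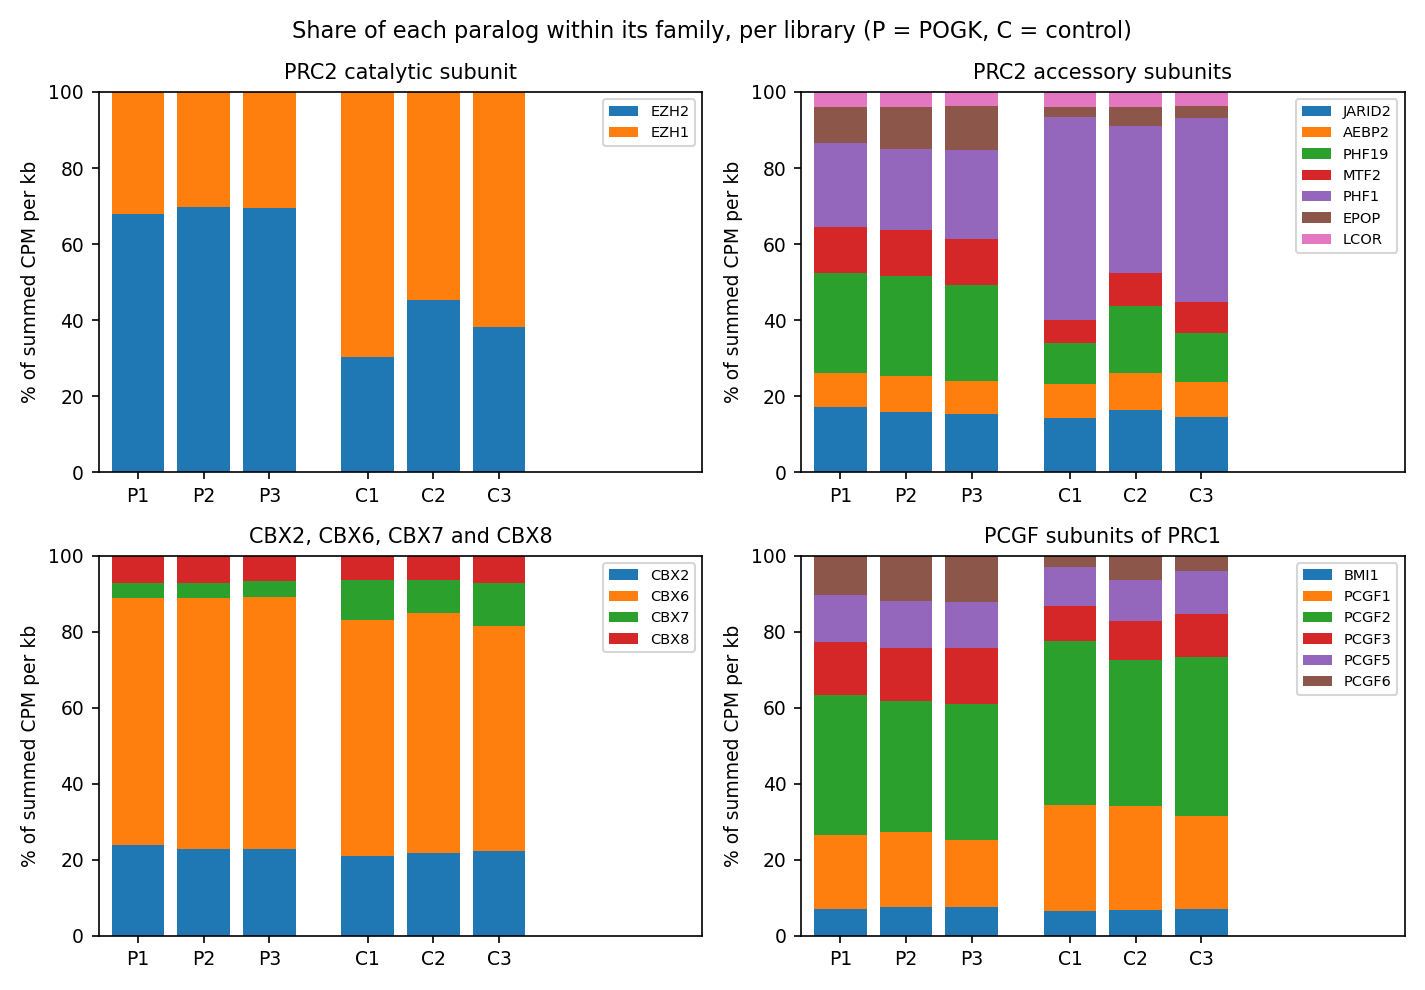
Stacked bars give each paralog's share, in percent of the summed CPM per kilobase of canonical transcript of the genes shown in its panel, for POGK libraries 1 to 3 (P) and control libraries 1 to 3 (C). The EZH2 share is larger in every POGK library, and PHF1 takes 22.2% of the PRC2 accessory level in POGK cells against 46.8% in control cells, while BMI1 keeps a share near 7% in both.

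The remaining PRC2 subunit genes were likewise divided. Of 7 genes tested, 4 rose and 3 fell, where 32.7% of all genes tested were called higher and 33.3% lower. The median log2 fold change was 0.42, and with library size alone 1 fell. EZHIP is not analysed here. RBBP4 and RBBP7, histone-binding subunits shared with other chromatin complexes, averaged 208 ± 1.38 and 542 ± 4.65 CPM in POGK cells, against 131 ± 12.6 and 355 ± 22.6 CPM in control cells. They rose with log2 fold changes of 0.66 and 0.61 (edgeR, adjusted p = 0.000134 and 0.000135). EPOP, which links PRC2.1 to elongins, had 17.6, 19.6 and 21.7 CPM in the POGK libraries and 6.36, 10.6 and 6.94 CPM in the control libraries, a rise of 2.45-fold (edgeR, adjusted p = 0.000315). PHF1, a Tudor domain paralog of PHF19, went the opposite way, with 27.9, 26.3 and 30.3 CPM in the POGK libraries and 82.4, 56.5 and 73.5 CPM in the control libraries. It fell 2.51-fold (edgeR, adjusted p = 4.71e-05). PHF19 made up 25.9 ± 0.58% of the accessory level per kilobase of canonical transcript in POGK cells and 13.7 ± 3.45% in control cells, whereas PHF1 made up 22.2 ± 0.98% and 46.8 ± 7.30% (SD, n = 3 each). JARID2 held 16.04 ± 0.88% in POGK cells and 15.1 ± 1.03% in control cells.

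Of 10 canonical PRC1 partner genes tested, 6 fell, 3 rose and SCML1 did not pass, where 33.3% of all genes were called lower and 32.7% higher. The median was -0.40 on the log2 scale, and with library size alone 4 fell. Without any 1 POGK replicate only 1 rose. Among them, CBX paralogs of CBX2 split. CBX6 rose to 184 ± 2.15 CPM in POGK cells, against 137 ± 7.33 CPM in control cells (edgeR, adjusted p = 0.000514). CBX7 fell 2.02-fold (edgeR, adjusted p = 0.000407), and CBX8 rose 1.30-fold at 0.0299, a call lost without any 1 of the libraries except control replicate 3, at adjusted p-values of 0.0522 to 0.0957. Of the summed level of CBX2, CBX6, CBX7 and CBX8 per kilobase of canonical transcript, CBX2 made up 23.2 ± 0.63% in POGK cells and 21.6 ± 0.73% in control cells, and CBX6 was the largest of these 4 in both groups, at 65.7 ± 0.75% in POGK cells and 61.4 ± 2.12% in control cells (SD, n = 3 each). PHC2, a Polyhomeotic subunit that links PRC1 complexes into chains, fell 1.81-fold to 142 ± 2.68 CPM in POGK cells, against 257 ± 24.0 CPM in control cells (edgeR, adjusted p = 3.36e-05).

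Among the PCGF partners, PCGF2, the closest paralog of BMI1, fell 1.503-fold and PCGF1 fell 1.84-fold (edgeR, adjusted p = 0.000324 and 0.000138). PCGF6 rose 1.98-fold at 0.0029, with 17.2, 19.9 and 20.1 CPM in the POGK libraries and 6.80, 13.3 and 8.69 CPM in the control libraries. PCGF3 did not pass, at a log2 fold change of 0.10, and PCGF5 passed at -0.19 and an edgeR adjusted p of 0.0263 but was at 0.0057 with library size alone, and the call was lost with DESeq2 at 0.0662, with the replicate block at 0.0611, without control replicate 3 at 0.0507 and without POGK replicate 1, 2 or 3 at 0.098, 0.0963 and 0.122. BMI1 held 7.41 ± 0.38% of the PCGF level per kilobase in POGK cells and 6.72 ± 0.29% in control cells (SD, n = 3 each). Of 21 variant PRC1 genes tested, PCGF genes included, 7 rose, 9 fell and 5 did not pass. The shares were 33.3% higher and 42.9% lower, against 32.7% and 33.3% of all genes tested. The median log2 fold change was -0.03. With library size alone the balance turned, as 10 rose and 4 fell. AUTS2 is not analysed here. RYBP, which replaces CBX proteins in variant PRC1, had the largest fall of the list, 2.64-fold to 55.2 ± 0.57 CPM in POGK cells, against 146 ± 27.1 CPM in control cells (edgeR, adjusted p = 2.17e-05). L3MBTL2, a subunit of the PCGF6 form, had the largest rise, 2.93-fold to 25.4 ± 0.30 CPM in POGK cells, against 8.64 ± 2.47 CPM in control cells, at 8.61e-05. KDM2B, the CpG-binding subunit of the PCGF1 form, rose 1.78-fold at 7.96e-05.

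**Figure D4:**
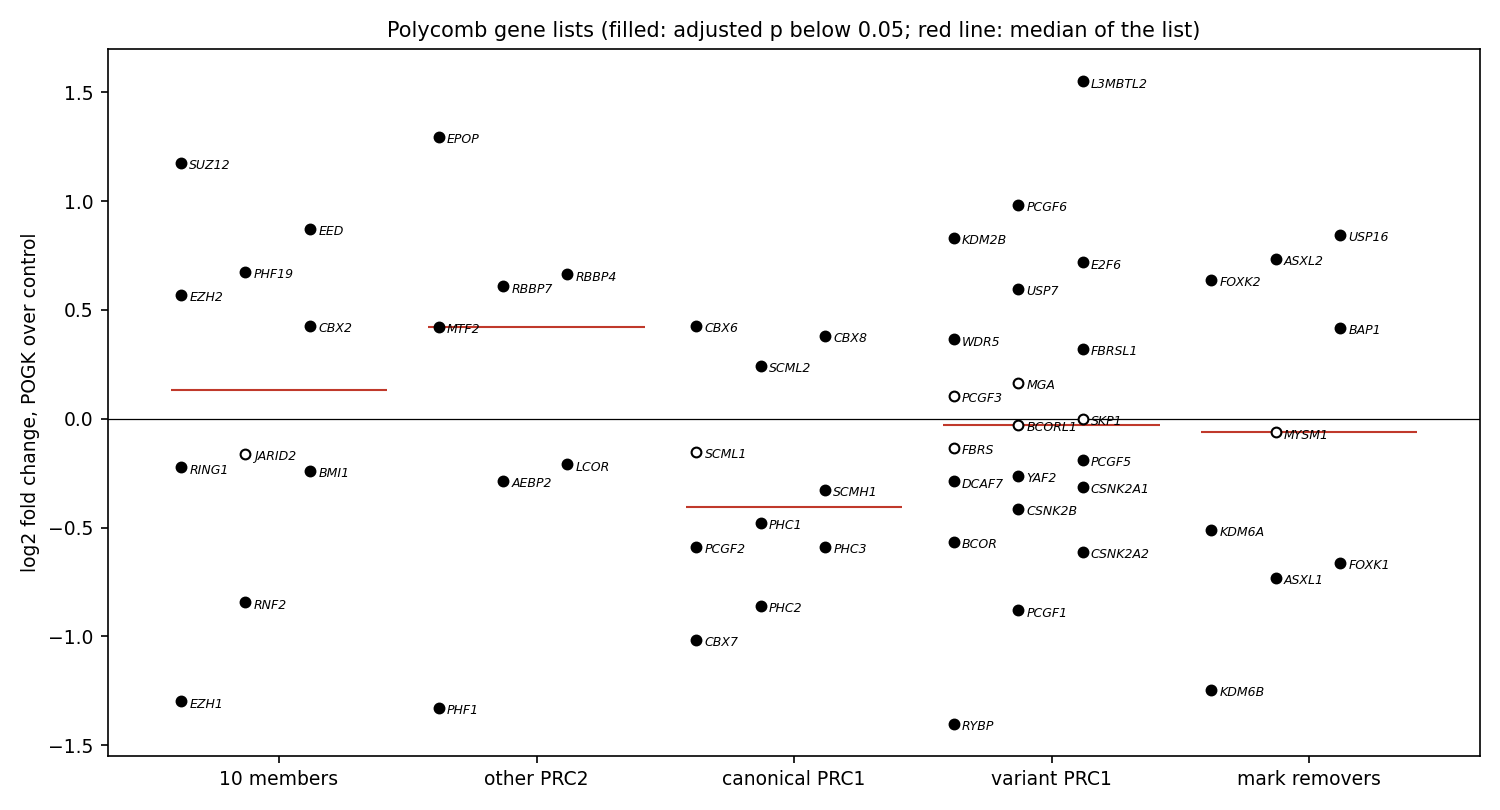
Log2 fold changes of POGK over control cells for every tested gene of the 10 members and of 4 further Polycomb lists, with list medians as red lines; filled circles passed the edgeR test at an adjusted p below 0.05. Each list holds genes on both sides of 0, and the canonical PRC1 list has the lowest median, -0.40.

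Genes for enzymes that remove Polycomb marks, and for their partners, moved both ways, with 4 of 9 tested genes higher, 4 lower and MYSM1 not passing. Each direction held 44.4%, against 32.7% higher and 33.3% lower among all genes tested. ASXL3 is not analysed here. Of the 5 enzymes among them, USP16 and BAP1 rose and KDM6A and KDM6B fell. KDM6B, an H3K27 demethylase, fell 2.37-fold to 39.2 ± 1.05 CPM in POGK cells, against 92.9 ± 13.5 CPM in control cells (edgeR, adjusted p = 1.90e-05). ASXL1, a partner of the H2A deubiquitinase BAP1, fell 1.66-fold at 0.000137, and FOXK1, a DNA-binding partner of the same complex, fell 1.58-fold at 0.000189. Their paralogs went the opposite way: ASXL2 rose 1.66-fold and FOXK2 1.56-fold (edgeR, adjusted p = 0.000304 and 0.000451). USP16, another H2A deubiquitinase, rose 1.80-fold at 0.000177.

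Genes known from other tumour cells as silenced by EZH2 did not move one way. Of 24 listed, 14 were tested, of which 4 rose, 7 fell and 3 did not pass. The shares were 28.6% higher and 50% lower, against 32.7% and 33.3% of all genes tested. Their median was -0.51 on the log2 scale. The other 10 are not analysed here. CDKN1C, a cell cycle inhibitor, had 1.37, 1.05 and 1.18 CPM in the POGK libraries and 8.29, 5.84 and 5.96 CPM in the control libraries, a fall of 5.54-fold (edgeR, adjusted p = 1.69e-05). IGFBP3, an IGF-binding protein gene, fell 7.93-fold at 1.06e-05, and CNR1, a cannabinoid receptor gene, fell 2.64-fold at 8.98e-06. TIMP3, an inhibitor of metalloproteinases, rose 2.14-fold to 189 ± 1.56 CPM in POGK cells, against 88.3 ± 11.9 CPM in control cells, at 2.36e-05. No chromatin mark was measured in these libraries.

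Proliferation markers moved in the same direction as the rising members. Of 16 such genes, including MKI67, PCNA and the MCM helicase genes, 15 rose, none fell and TOP2A did not pass. The share called higher was 93.8%, against 32.7% of all genes tested. The median was 1.30 on the log2 scale. Their summed level was 4840, 4775 and 4789 CPM in the POGK libraries and 2584, 3165 and 2714 CPM in the control libraries. By summed level, control replicate 2 was the highest control for these markers. It was also the highest control for EZH2, SUZ12 and PHF19, whereas EED and CBX2 were highest in control replicate 3. Control replicate 1 was the lowest control for the summed markers, for all 5 rising members and for RING1, which fell. Single markers differed: CCNA2, E2F1, RRM2 and BIRC5 were lowest in control replicate 3. CDK1 had 206.1, 181.8 and 192.1 CPM in control replicates 1, 2 and 3. The part of proliferation in the rise of the PRC2 genes was not tested.

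The nearest genes were sought for EZH2 and BMI1 among tested protein-coding genes outside the lists, by the Euclidean distance of log2 CPM centred on each gene's mean over the 6 libraries. For EZH2 they were ARHGAP21, TRIM47, PMS2, KLHL20 and UBR1, at distances of 0.08 to 0.09, with log2 fold changes of 0.53 to 0.55. For BMI1 they were NIT1, PYGO2, ZBTB1, FBXL5 and RAP2A, at distances of 0.07 to 0.08, with log2 fold changes of -0.25 to -0.21. These values describe likeness over 6 libraries of 2 groups and carry no test.

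In the authors' deposited table the same 9 members had an adjusted p below 0.05, each in the same direction as here, and JARID2 was at 0.123. There the log2 fold changes ran from -1.30 for EZH1 to 1.18 for SUZ12.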

How the data were processed

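Per the labels' protocols, rRNA-depleted total RNA was sequenced and aligned to hg38. Tools named by the submitters' processing notes are featureCounts, STAR and Trimmomatic, beside SAMtools and deepTools, without versions. The annotation and the strand setting of the counting are not given in the sources. Per the file headers, the authors deposited raw counts per gene for 6 libraries. They also deposited a signal column per library, from its values the count divided by 1 size factor, and log2 fold changes with a test score and p-values, by a tool not stated. These columns were used only where the authors' table is named.

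The main test was edgeR 4.0.16 (R 4.3.3), quasi-likelihood, robust, TMM scaling, default filter on low counts, Benjamini-Hochberg adjustment over 15889 genes. It fits the same spread to both groups, though control libraries varied more. Standard errors come from the F statistic. Alternatives were DESeq2 1.42.0, limma-voom (limma 3.58.1), other scalings and filters, a replicate block and each library left out; removal of GC and length trends and canonical transcript length were added after seeing the data. Lengths and positions are from GENCODE 44 (hg38). Scripts were tested on simulated counts. The members, gene lists and the rule for named genes (all members, up to 4 called genes per list by smallest adjusted p, CBX and PCGF paralogs, nearest genes) were chosen with earlier results of these data known. One gene of the canonical PRC1 list is not reported here.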

Additional observations from a re-analysis of the deposited data

How the results depend on the processing

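EZH1, EZH2, EED, SUZ12, PHF19, RNF2 and CBX2 kept their direction and their call in all 14 alternatives. The 5 members that rose stayed at 5 throughout. The 4 that fell were 2 with library size alone and 2 with the replicate block, and 2 to 5 with a library left out, at 2 without any 1 POGK replicate; the calls lost were those of RING1 and BMI1. The block also ended the calls of PCGF5, PYGO2 and RAP2A. Library size alone moved the median of all genes to 0.19. With it 1 of the other PRC2 genes fell, and of the variant PRC1 genes 4 fell and 10 rose. JARID2 was then at 0.0323 and PCGF5 at 0.0057, in place of -0.16 and -0.19. That scaling called 6575 genes higher and 3925 lower, or 5202 and 5285 with TMM. The canonical PRC1 genes that rose were 1 or 2 with a library left out. The cause was not tested beyond the construction of each alternative. With the replicate block, 5136 genes were higher and 5103 lower. Same-numbered libraries deviated together with correlations across genes of 0.087, 0.041 and 0.003. POGK replicates 1 and 2 correlated best with the control of the same number, and POGK replicate 3 with control replicate 2, at 0.046. All were low, and the numbers were not taken as pairs. The paired exact p of the 3 log2 ratios was 0.25, the smallest possible. With a library left out, the ratio differences lay between 1.64 and 2.103 for EZH2 to EZH1, -0.66 and -0.54 for RNF2 to RING1, and -0.99 and -0.73 for JARID2 to PHF19.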
